A study of Mus musculus with 12 samples.

Results

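Fibroblast growth factor (FGF) signalling was described through 10 of the 19938 genes measured in sorted mouse mammary cells: the ligands Fgf1, Fgf2, Fgf7 and Fgf10, the receptors Fgfr1, Fgfr2 and Fgfr3, and the feedback inhibitors Spry1, Spry2 and Spred1. The genes were listed by name, but with earlier results of these data known, so the counts below do not come from a blind choice. Each gene was read from the probeset with the highest mean level, which for all 10 was the only probeset of that gene. Global expression was measured on 12 Affymetrix arrays, 3 for each of 4 groups. All mice were MMTV::Cre+ and carried the mT/mG reporter, in which Cre turns recombined cells green, and were females of 10 to 14 weeks. The WT group was Wnt4 wt/wt and the Wnt4-deleted group Wnt4 fl/fl, so that Cre removed Wnt4, a Wnt ligand of hormone-responsive luminal cells, only where the MMTV promoter was or had been active. After lineage depletion, GFP+ cells were sorted into CD24 low cells, labelled myoepithelial, and CD24 high cells, labelled luminal. The study's methods keep the Cre and floxed lines on a C57BL/6JOlaHsd background. The design text speaks of glands and the treatment text of grafts, and which of the 2 applies was not settled here.

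FGFs are secreted proteins that bind heparan sulfate at the cell surface and in the matrix together with receptor tyrosine kinases. The active receptor signals through adaptors and the Ras-MAPK cascade, and Sprouty and Spred proteins, which the cascade itself induces, dampen it in return. In the mammary gland the stroma is a known source of Fgf7 and Fgf10, and the epithelium carries Fgfr1 and Fgfr2, with Fgfr2 required for branching and for the outgrowth of the ductal tree.

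The number in a sample's title serves as the name of its array. WT cells of the CD24 low fraction were arrays 1, 9 and 13, Wnt4-deleted CD24 low cells arrays 3, 11 and 15, WT CD24 high cells arrays 2, 10 and 14, and Wnt4-deleted CD24 high cells arrays 4, 12 and 16. Markers fitted the labels: the mean of 12 myoepithelial markers was 10.58 to 11.17 in CD24 low and 6.06 to 6.90 in CD24 high arrays, and that of 9 measured luminal markers was 8.31 to 9.03 and 10.85 to 11.27 (all levels are log2 RMA values). CD24 low arrays also held transcripts of other cells. The mean of 10 fibroblast markers was 8.83 on array 9 and 8.42 on array 11, against 6.27 to 6.89 on the other CD24 low arrays and 5.50 to 6.0 on CD24 high arrays. The mean of 10 endothelial markers was 6.55 to 9.27 in CD24 low and 5.18 to 6.45 in CD24 high arrays, and that of 10 skeletal muscle markers stood at 7.11 on array 1 and 8.12 on array 3, against 5.13 to 5.71 elsewhere. Wnt4 itself was 7.42 to 7.92 in WT and 6.11 to 6.78 in Wnt4-deleted CD24 high cells, and 6.45 to 6.63 and 6.20 to 6.66 in CD24 low cells. Its fall of 1.20 on the log2 scale in CD24 high cells left no overlap between arrays but did not pass limma's test over all genes (adjusted p = 0.416), and where its probes lie relative to the deleted exons is not given in the sources used here.

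**Figure D1:**
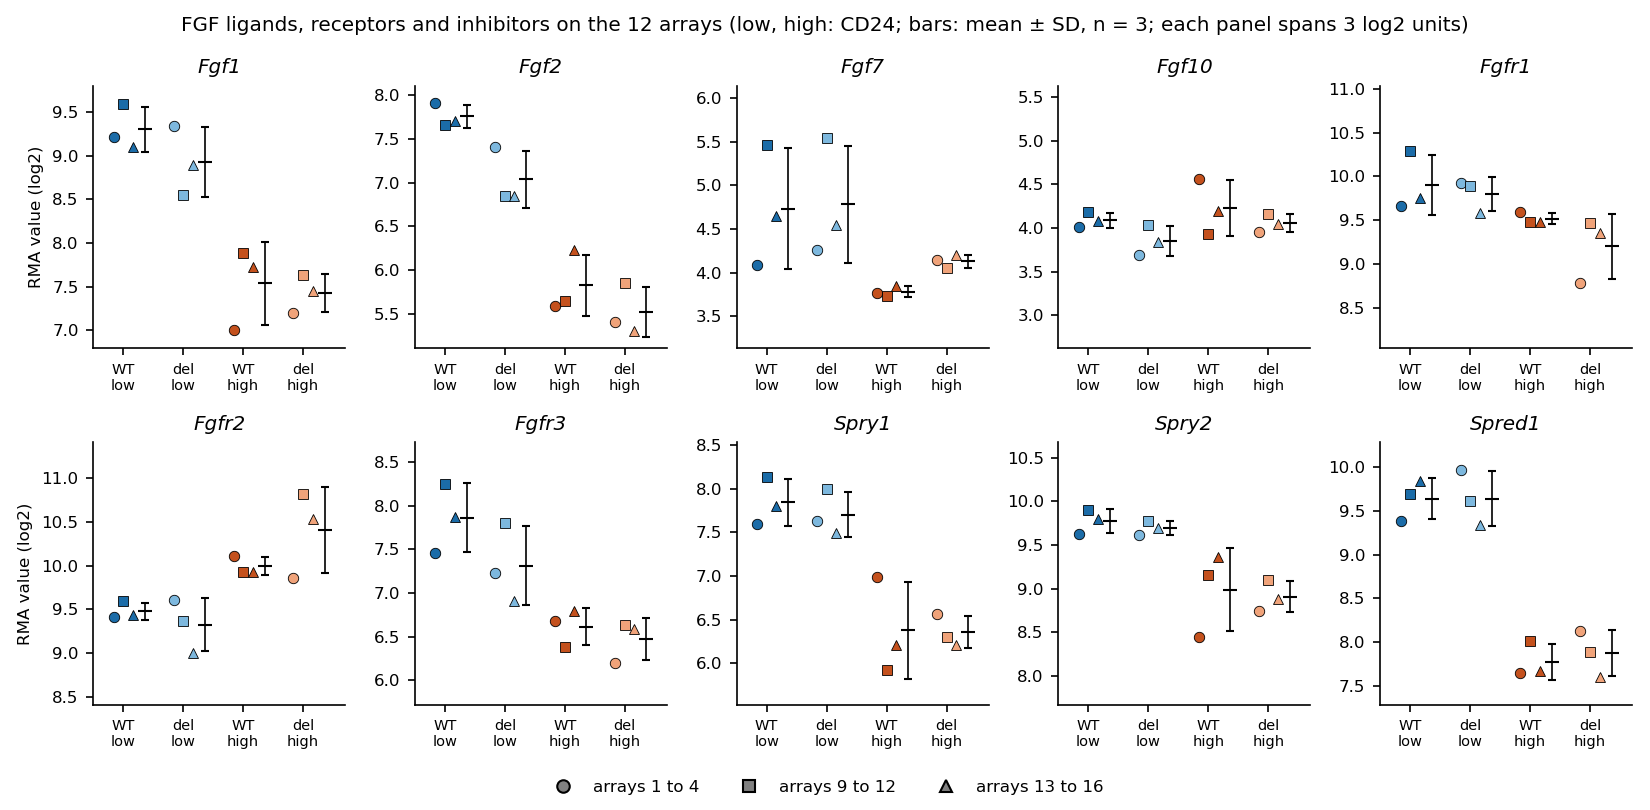
RMA values (log2, vertical axis) of the 10 genes on each of the 12 arrays, by genotype (WT or Wnt4-deleted, "del") and CD24 fraction, with the mean and SD of 3 arrays beside each group. Each panel spans the same range of log2 units; 6 genes were lower and Fgfr2 was higher on all 6 CD24 high arrays than on all 6 CD24 low arrays.

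The first question was how the FGF genes divide between the 2 fractions. In WT cells 6 of the 10 genes were lower in CD24 high than in CD24 low cells at an adjusted p under 0.05 and none was higher, while limma called 16.1% of all genes, 8.21% as lower and 7.93% as higher. In Wnt4-deleted cells the same 6 genes were lower and Fgfr2 was higher, against 16.4% of all genes called, 8.22% as lower and 8.23% as higher. The genes lower in both genotypes were Fgf1, Fgf2, Fgfr3, Spry1, Spry2 and Spred1. The median log2 change of the 10 genes was -1.10 in WT and -0.81 in Wnt4-deleted cells, beside 0.02 and 0.01 over all genes. On all 6 CD24 high arrays against all 6 CD24 low arrays, 7 of the 10 genes did not overlap, which held for 16.5% of all genes. Of the 7, 6 were lower (8.33% of all genes) and 1 was higher (8.19%) on the CD24 high arrays. Within a genotype, 9 of the 10 did not overlap, 8 lower and 1 higher, in WT (32.8% of all genes) as in Wnt4-deleted cells (29.3%). RNA of a sorted population does not tell fewer cells of a type from less RNA per cell. The labels do not tie arrays to animals, so that the p-values cover only the spread among the arrays of a group, which may in part be technical.

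Fgf1, or acidic FGF, binds all FGF receptors. Its level (probeset 10458560) was 9.21, 9.59 and 9.10 on the WT and 9.34, 8.55 and 8.89 on the Wnt4-deleted CD24 low arrays. On CD24 high arrays it was 7.0, 7.89 and 7.72 in WT and 7.20, 7.63 and 7.45 in Wnt4-deleted cells. All CD24 low arrays lay above all CD24 high arrays, with the highest value on array 9 and the lowest on array 2. The level was 3.39-fold lower in WT CD24 high cells (log2 change -1.76, SE 0.26, adjusted p = 7.6e-04) and 2.83-fold lower in Wnt4-deleted CD24 high cells (log2 change -1.5, adjusted p = 0.00217).

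Fgf2, or basic FGF, is a ligand long used to keep epithelial progenitors in culture. It was measured by probeset 10491699 at 7.91, 7.66 and 7.71 in WT and 7.41, 6.85 and 6.85 in Wnt4-deleted CD24 low cells. In CD24 high cells it was 5.59, 5.65 and 6.23 in WT and 5.41, 5.85 and 5.30 in Wnt4-deleted cells. The lowest CD24 low array thus stood above the highest CD24 high array, and within CD24 low cells the Wnt4-deleted arrays all lay below the WT arrays. Fgf2 fell 3.84-fold from CD24 low to CD24 high in WT (log2 change -1.94, SE 0.22, adjusted p = 1.2e-04), the deepest fold of the 10 genes there, and 2.86-fold in Wnt4-deleted cells (log2 change -1.52, adjusted p = 6.3e-04). In RefSeq Fgf2 overlaps Nudt6, and 2 protein-coding genes, Nudt6 and Spata5, lie between Fgf2 and Spry1 on chromosome 3. Nudt6, looked at after the values of Fgf2 were seen, was also lower in CD24 high cells (log2 change -0.97 in WT, adjusted p = 0.0028, and -0.89 in Wnt4-deleted cells, adjusted p = 0.00478). Spata5 was not called in either genotype (log2 change -0.42, adjusted p = 0.185, and -0.33, adjusted p = 0.29). Arhgap26 and Fam227b, tested together with these neighbours, were not called either. Their log2 changes in WT and Wnt4-deleted cells were 0.38 and 0.44 for Arhgap26, and 0.01 and -0.14 for Fam227b.

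Fgf7 and Fgf10 are paracrine ligands of the epithelial splice form of Fgfr2. Both were dim: Fgf7 (probeset 10475643) stood between the 13.4th and 40.9th percentile of the genes on its array, and Fgf10 (probeset 10407350) between the 14.7th and 24.6th. Fgf7 was 4.09, 5.46 and 4.65 in WT and 4.26, 5.54 and 4.54 in Wnt4-deleted CD24 low cells, and 3.77, 3.73 and 3.85 in WT and 4.14, 4.05 and 4.2 in Wnt4-deleted CD24 high cells. Within each genotype the CD24 low arrays lay above the CD24 high arrays, and in Wnt4-deleted cells array 3 stood close to array 16. The difference did not pass in WT (log2 change -0.95, SE 0.35, adjusted p = 0.095) or in Wnt4-deleted cells (log2 change -0.65, SE 0.35, adjusted p = 0.263).

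The highest Fgf7 values were those of arrays 9 and 11, the arrays with the highest fibroblast marker means. These arrays also had the highest means of 6 pericyte markers (7.26 and 7.68, at most 6.38 elsewhere). The same held for 7 measured immune markers (6.09 and 5.92, at most 5.57 elsewhere). Pericyte and immune means were not used as covariates. With the fibroblast mean as a covariate the log2 change of Fgf7 was -0.23 in WT (adjusted p = 0.578) and 0.18 in Wnt4-deleted cells (adjusted p = 0.721), and with the endothelial mean it was -0.33 (adjusted p = 0.706) and 0.06 (adjusted p = 0.969). With the skeletal muscle mean it was -1.18 (adjusted p = 0.0164) and -1.07 (adjusted p = 0.0392) and passed in both genotypes. The fibroblast and endothelial means themselves did not overlap between the fractions, so fits with them also take up part of the fraction difference. Which of these cell types, if any, bears on Fgf7 was not tested. Without arrays 9 and 11 it was -0.59 (adjusted p = 0.0634) and -0.27 (adjusted p = 0.434). One array also mattered in the other direction: without array 1, the change in WT was -1.27 and passed (adjusted p = 0.0345), and without array 11, which is not in that comparison but adds to the shared spread, the same change of -0.95 passed (adjusted p = 0.0383). Fgf10 was 4.01, 4.18 and 4.08 in WT and 3.69, 4.03 and 3.84 in Wnt4-deleted CD24 low cells, and 4.56, 3.93 and 4.2 and then 3.96, 4.16 and 4.05 in the CD24 high cells. Its groups overlapped, and its log2 change was 0.14 in WT (95% interval -0.21 to 0.49, adjusted p = 0.686) and 0.20 in Wnt4-deleted cells (95% interval -0.15 to 0.55, adjusted p = 0.484). Arrays 9 and 11 held the highest Fgf10 value of their CD24 low group too, within a range of 3.69 to 4.18 over the CD24 low arrays.

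**Figure D2:**
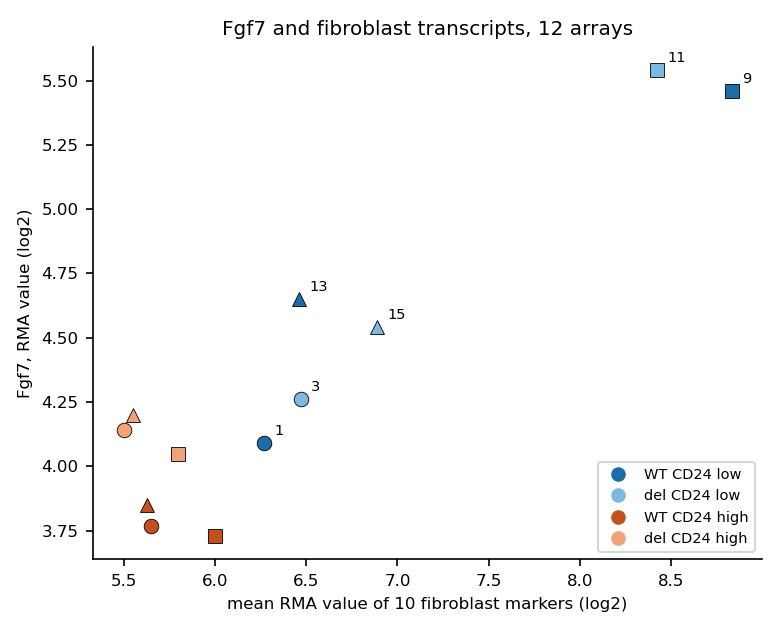
Fgf7 (RMA value, log2, vertical axis) against the mean RMA value (log2) of 10 fibroblast markers on the horizontal axis, 1 point an array, with CD24 low arrays numbered and symbols as in the plot of the 10 genes. Arrays 9 and 11 stand apart at 5.46 and 5.54 for Fgf7 and 8.83 and 8.42 for the markers.

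The 3 receptors did not follow one pattern. Fgfr1 (probeset 10570982) was 9.66, 10.29 and 9.75 in WT and 9.93, 9.89 and 9.58 in Wnt4-deleted CD24 low cells. On CD24 high arrays it was 9.59, 9.48 and 9.48 in WT and 8.78, 9.47 and 9.35 in Wnt4-deleted cells. Array 9 was the highest and array 4 the lowest, and within each genotype the fractions did not overlap. The log2 change from CD24 low to CD24 high was -0.38 in WT (95% interval -0.84 to 0.07, adjusted p = 0.281) and -0.60 in Wnt4-deleted cells (95% interval -1.05 to -0.14, adjusted p = 0.0751), so neither passed.

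Fgfr2, the receptor for Fgf7 and Fgf10 in epithelium, was the 1 member called higher in CD24 high cells. Whether its probeset 10568436 tells the splice forms apart is not given in the sources used here. The level was 9.41, 9.59 and 9.43 in WT and 9.60, 9.37 and 9.0 in Wnt4-deleted CD24 low cells, and 10.11, 9.93 and 9.93 in WT and 9.86, 10.82 and 10.53 in Wnt4-deleted CD24 high cells. All CD24 high arrays lay above all CD24 low arrays, with arrays 12 and 16 highest. The log2 change was 1.08 in Wnt4-deleted cells (SE 0.22, 2.11-fold, adjusted p = 0.00655) and 0.51 in WT (SE 0.22, adjusted p = 0.167), which did not pass. The test of the difference between these changes did not pass either: coded as the genotype effect in CD24 low minus that in CD24 high cells it was -0.56 (SE 0.32, unadjusted p = 0.103, adjusted p = 1.0), and it was 0.44 within arrays 1 to 4, -1.10 within arrays 9 to 12 and -1.03 within arrays 13 to 16. In a fit on the compared groups alone the call moved from one genotype to the other, with an adjusted p of 0.0249 in WT and 0.057 in Wnt4-deleted cells.

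Fgfr3 (probeset 10521111) was 7.46, 8.25 and 7.87 in WT and 7.23, 7.80 and 6.91 in Wnt4-deleted CD24 low cells. On CD24 high arrays it was 6.68, 6.38 and 6.79 in WT and 6.20, 6.63 and 6.59 in Wnt4-deleted cells. The fractions did not overlap, but array 15 of the CD24 low cells lay close to array 14 of the CD24 high cells. Fgfr3 fell 2.36-fold in WT (log2 change -1.24, SE 0.25, adjusted p = 0.0056) and 1.79-fold in Wnt4-deleted cells (log2 change -0.84, SE 0.25, adjusted p = 0.042). The second call was lost in 17 of 29 alternatives, among them leaving out any 1 of arrays 2, 3, 4, 10, 11, 12, 13, 14 or 16, with adjusted p-values from 0.0507 (array 10) to 0.147 (array 11). Fgfr3 too was highest on array 9 among the WT and on array 11 among the Wnt4-deleted arrays, as were Spry1 and Spry2 below. Without those 2 arrays the change of Fgfr3 was -1.05 in WT (adjusted p = 0.0102) and -0.60 in Wnt4-deleted cells (adjusted p = 0.105).

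All 3 inhibitors were lower in CD24 high cells in both genotypes. Spred1, which binds neurofibromin and holds Ras inactive, was 9.38, 9.69 and 9.84 in WT and 9.97, 9.61 and 9.34 in Wnt4-deleted CD24 low cells (probeset 10474671). On CD24 high arrays it was 7.64, 8.01 and 7.67 in WT and 8.13, 7.89 and 7.60 in Wnt4-deleted cells. The gap between the lowest CD24 low and the highest CD24 high array, 9.34 against 8.13, was wider than the spread within any group. The level was 3.64-fold lower in WT (log2 change -1.86, SE 0.20, adjusted p = 8.1e-05) and 3.40-fold lower in Wnt4-deleted cells (log2 change -1.77, SE 0.20, adjusted p = 1.2e-04), and within each of the 3 sets of title numbers the change lay between -2.17 and -1.68.

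Spry1, an inhibitor of receptor tyrosine kinase signalling upstream of MAPK, was 7.60, 8.13 and 7.80 in WT and 7.63, 7.99 and 7.49 in Wnt4-deleted CD24 low cells (probeset 10491721). On CD24 high arrays it was 6.99, 5.93 and 6.21 in WT and 6.57, 6.30 and 6.21 in Wnt4-deleted cells. Array 2 was the highest of the CD24 high arrays and still below every CD24 low array. The level was 2.77-fold lower in WT (log2 change -1.47, SE 0.25, adjusted p = 0.00218) and 2.54-fold lower in Wnt4-deleted cells (log2 change -1.34, SE 0.25, adjusted p = 0.00366).

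Spry2, the close relative of Spry1, changed less. It was 9.62, 9.90 and 9.80 in WT and 9.61, 9.77 and 9.69 in Wnt4-deleted CD24 low cells, and 8.45, 9.16 and 9.36 in WT and 8.75, 9.10 and 8.88 in Wnt4-deleted CD24 high cells (probeset 10422227). The CD24 low arrays lay within a narrow band above all CD24 high arrays, of which array 2 was the lowest. The log2 change was -0.78 in both genotypes (SE 0.20, 1.72-fold, adjusted p = 0.0226 in WT and 0.0225 in Wnt4-deleted cells). These calls sat near the threshold and were lost in 7 of 29 alternatives in WT and 8 of 29 in Wnt4-deleted cells. In WT they included leaving out array 9 (adjusted p = 0.0822) or 13 (0.0707), and in Wnt4-deleted cells array 4 (0.0786), 11 (0.0709), 15 (0.055) or 16 (0.0743).

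**Figure D3:**
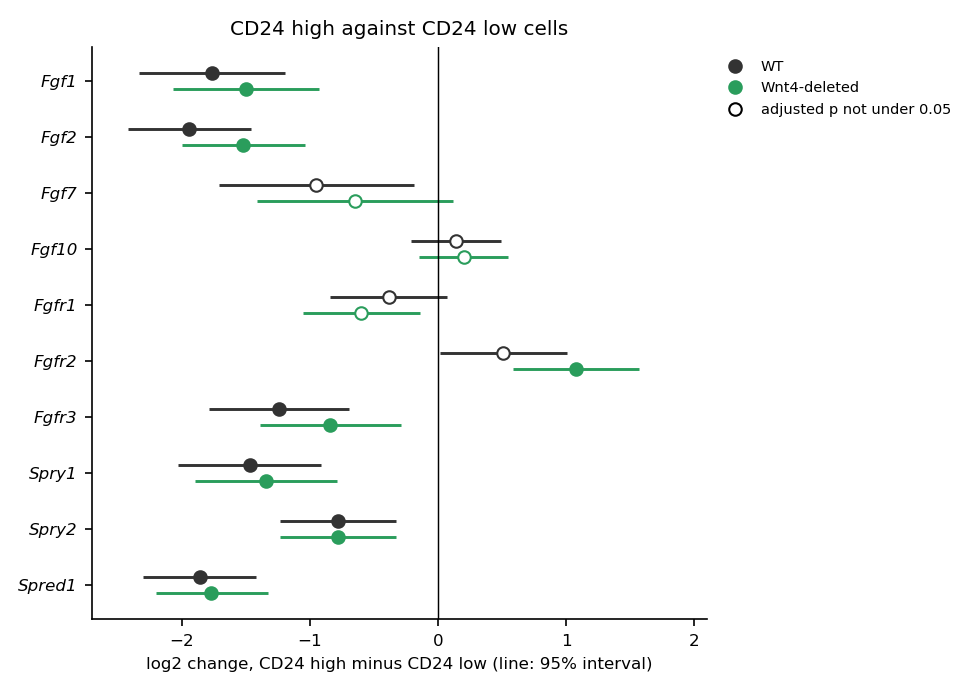
Log2 change from CD24 low to CD24 high cells (horizontal axis) of each gene in WT and Wnt4-deleted cells, with 95% intervals and open symbols where the adjusted p is not under 0.05. The 6 genes with filled symbols left of 0 in both genotypes are Fgf1, Fgf2, Fgfr3, Spry1, Spry2 and Spred1, and Fgfr2 alone is filled right of 0, in Wnt4-deleted cells.

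Fibroblast and endothelial transcripts moved with the fractions too, and no marker of either list was higher in CD24 high cells in either genotype. Of 10 fibroblast markers, 2 were called lower in CD24 high cells in each genotype. Of 10 endothelial markers, 5 were called lower in WT and 6 in Wnt4-deleted cells. Over all genes, 8.21% were called lower in WT and 8.22% in Wnt4-deleted cells. The fibroblast mean was 6.27 to 8.83 on CD24 low and 5.50 to 6.0 on CD24 high arrays. The endothelial mean was 6.55 to 9.27 and 5.18 to 6.45. Neither mean overlapped between the fractions, so either covariate also takes up part of the fraction difference. Calls kept or lost in these fits therefore do not sort the genes by cell type. With the fibroblast marker mean as a covariate, 5 of the 10 FGF genes were called in WT (11.6% of all genes in that fit) and 4 in Wnt4-deleted cells (10.3%). With the endothelial mean it was 4 (13.2%) and 3 (10.2%), and with the skeletal muscle mean 7 (18.9%) and 8 (19.8%). Fgf1, Fgf2 and Spred1 passed in both genotypes with the fibroblast and with the endothelial mean. Their adjusted p-values reached 0.022 for Fgf1, 0.00355 for Fgf2 and 0.00307 for Spred1. Under the same covariates Spry1 passed in WT (adjusted p = 0.0209 and 0.0239) and not in Wnt4-deleted cells (0.0531 and 0.0569). Spry2 passed with neither of these means in either genotype. Fgfr3 in WT passed with the fibroblast mean (adjusted p = 0.0399) and not with the endothelial mean (0.0868). In Wnt4-deleted cells Fgfr3 passed with neither (adjusted p = 0.432 and 0.48). Fgfr2 in Wnt4-deleted cells passed with the fibroblast mean (0.0305) and not with the endothelial mean (0.0817). With the skeletal muscle mean all calls of these genes held. Without arrays 9 and 11 there were 5 calls in each genotype (12.4% of all genes in WT and 11.4% in Wnt4-deleted cells), and without arrays 1 and 3 there were 7 in each (15.2% and 17.9%).

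The start regions of Fgf2, Spry1 and Spred1, called lower in CD24 high cells, are shown beside that of Fgfr2, which went the other way. RefSeq promoters were at hand for 8 of the 10 genes, not for Fgf1 and Fgfr1, with 2 start sites for Fgfr3. Each line gives the 250 bases before the start site, 5′ to 3′ on the gene's own strand, in build GRCm38.p6. Capitals mark GGGCGG (the GC box) or GGAATG (the core bound by TEAD factors) on either strand, so that a GC box on the opposite strand reads CCGCCC.
Fgf2, chr3:37348403-37348652, plus strand: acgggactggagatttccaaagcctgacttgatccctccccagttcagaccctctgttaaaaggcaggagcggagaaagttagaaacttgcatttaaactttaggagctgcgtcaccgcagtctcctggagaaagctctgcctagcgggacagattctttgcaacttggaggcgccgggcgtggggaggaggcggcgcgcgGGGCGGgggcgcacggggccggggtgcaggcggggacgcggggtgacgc
Spry1, chr3:37639697-37639946, plus strand: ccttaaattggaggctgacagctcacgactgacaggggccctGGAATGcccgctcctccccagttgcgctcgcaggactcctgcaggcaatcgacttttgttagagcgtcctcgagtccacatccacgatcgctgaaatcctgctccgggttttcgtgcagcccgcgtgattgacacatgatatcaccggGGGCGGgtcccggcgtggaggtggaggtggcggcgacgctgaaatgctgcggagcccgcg
Spred1, chr2:117120821-117121070, plus strand: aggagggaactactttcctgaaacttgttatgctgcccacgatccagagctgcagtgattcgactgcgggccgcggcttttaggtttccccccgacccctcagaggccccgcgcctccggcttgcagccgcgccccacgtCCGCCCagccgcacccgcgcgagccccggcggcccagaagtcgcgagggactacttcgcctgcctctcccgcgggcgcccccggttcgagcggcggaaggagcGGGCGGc
Fgfr2, chr7:130266809-130267058, minus strand: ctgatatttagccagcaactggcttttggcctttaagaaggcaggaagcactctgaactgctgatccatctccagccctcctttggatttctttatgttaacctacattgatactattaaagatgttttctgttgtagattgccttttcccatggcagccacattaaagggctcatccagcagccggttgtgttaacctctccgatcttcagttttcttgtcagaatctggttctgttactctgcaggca
The upstream stretches of Fgf2, Spry1 and Spred1 were rich in G and C (62.4%, 62.4% and 70.8%) and held 20, 23 and 31 CpG dinucleotides, whereas that of Fgfr2 was 44.0% G and C with 2 CpG. Fgf10, which was not called, also reached 61.2%, with 8 CpG. Fgf7, lower in CD24 high cells but not called, stood beside Fgfr2 at 43.6%, with 6 CpG. The median over the 32851 promoters of the table was 52.4% with 6 CpG. A GC box stood once in Fgf2, once in Spry1 and at 2 places in Spred1, and not in Fgfr2. The other members did not keep to this division: Spry2, also called lower, held none, Fgf10, not called, held 1, and Fgfr3 held 3 and 2 at its start sites. In all 5 of the 8 genes held a GC box, and 32.7% of all promoters held at least 1 in the same window. GGAATG stood in Spry1 alone of the 8 genes, and in 12.6% of all promoters. The letters CTTTGAT or CTTTGAA, to which TCF and LEF factors bind, stood in none of the members' windows and in 7.48% of all promoters. Such matches only describe letters in these windows.

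The second question was whether loss of Wnt4 changed the FGF genes within a fraction. In CD24 low cells limma called 0 of the 10 genes, against 0.00502% of all genes, which is 1 gene, the coat colour gene nonagouti. Nonagouti was 6.95-fold higher in the Wnt4-deleted cells (adjusted p = 0.00206). In CD24 high cells limma again called 0 of 10, against 0.00502% and the same 1 gene, there 7.7-fold higher (adjusted p = 0.0012). Whether the genotypes differ in background beyond Wnt4 was not tested. At an unadjusted p under 0.05 there was 1 of the 10 in CD24 low cells (3.06% of all genes) and 0 in CD24 high cells (1.99% of all genes). The adjusted p was 1.0 for every member in both. The median log2 change of the 10 genes was -0.15 in the CD24 low and -0.10 in the CD24 high fraction, beside -0.02 and -0.03 over all genes.

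Fgf2 in CD24 low cells was the 1 gene under an unadjusted p of 0.05. Its arrays, given above, did not overlap, which held for 6.77% of all genes in this comparison. The Wnt4-deleted level was lower by a log2 change of -0.73 (95% interval -1.21 to -0.25, 1.66-fold, unadjusted p = 0.00659, adjusted p = 1.0), and it was -0.51, -0.82 and -0.86 within the 3 sets of title numbers. In CD24 high cells the change was -0.30 (95% interval -0.78 to 0.17) and its arrays overlapped. The difference between these effects was -0.42 (SE 0.31, unadjusted p = 0.198, adjusted p = 1.0), so an effect of Wnt4 loss on Fgf2 was not shown to differ between the fractions.

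Of the other ligands, Fgf7 in CD24 high cells was higher on every Wnt4-deleted array than on every WT array (log2 change 0.35, 95% interval -0.41 to 1.11), at a level dim enough that this rests on values of 3.73 to 4.2. In CD24 low cells its change was 0.05 (95% interval -0.72 to 0.81). Fgf1 changed by -0.37 in CD24 low cells (95% interval -0.94 to 0.20) and -0.11 in CD24 high cells (95% interval -0.68 to 0.46). Fgf10 changed by -0.24 and -0.18. These intervals do not show that the ligands were alike in the genotypes.

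Among the receptors, Fgfr1 in CD24 high cells was lower on each Wnt4-deleted array than on each WT array, although arrays 12 and 10 stood side by side at 9.47 and 9.48 (log2 change -0.31, 95% interval -0.77 to 0.14). Non-overlap in either direction was seen in 7.0% of all genes in this comparison, and among the 10 in Fgf7 and Fgfr1. Fgfr2 changed by -0.15 in CD24 low cells (95% interval -0.64 to 0.34) and by 0.41 in CD24 high cells (95% interval -0.08 to 0.90), where it was higher in 2 of 3 sets. Fgfr3 changed by -0.54 in CD24 low cells (95% interval -1.09 to 0.01, unadjusted p = 0.0527), was lower in 3 of 3 sets there, and changed by -0.14 in CD24 high cells. In CD24 low cells Spry1 changed by -0.14, Spry2 by -0.08 and Spred1 by 0.00, and in CD24 high cells by -0.02, -0.08 and 0.10. For Spred1 the 95% interval ran from -0.44 to 0.44 in CD24 low and from -0.34 to 0.54 in CD24 high cells.

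The genotype effects were also compared between the fractions, gene by gene. None of the 10 genes was called by limma (0.0% of all genes, 0 genes), and 0 of the 10 had an unadjusted p under 0.05 (1.37% of all genes). The median of the 10 differences was -0.19, beside 0.00 over all genes.

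**Figure D4:**
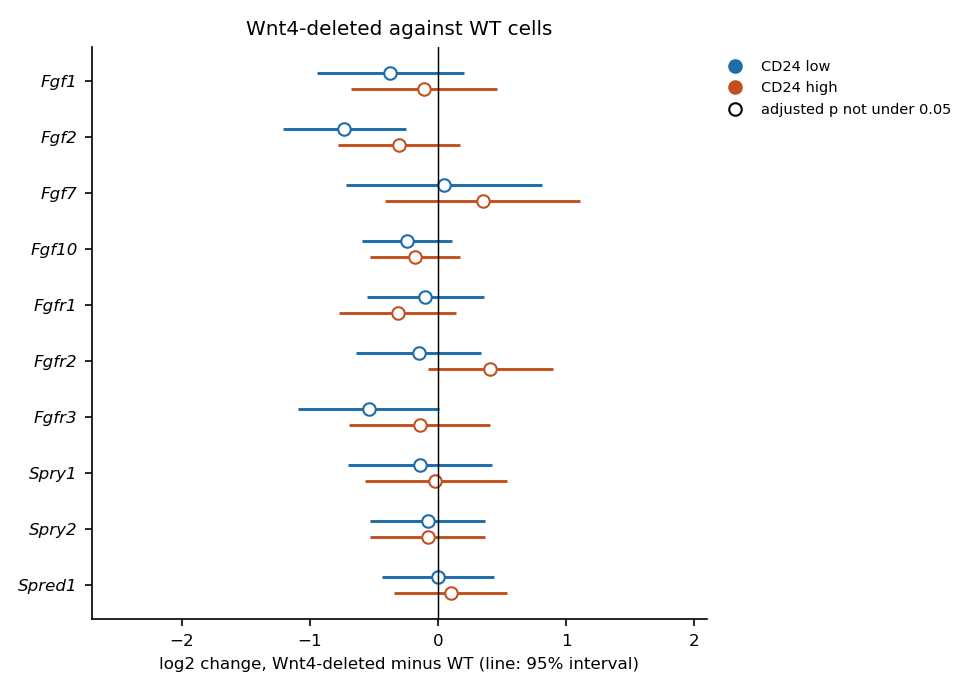
Log2 change from WT to Wnt4-deleted cells (horizontal axis) of each gene in CD24 low and CD24 high cells, with 95% intervals. All symbols are open because no adjusted p is under 0.05, and the interval of Fgf2 in CD24 low cells, -1.21 to -0.25, lies wholly below 0.

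The other genes of the pathway were taken from lists arranged by role, with 87 of 94 listed genes measured. Between the WT fractions 24 of the 87 passed, 20 lower and 4 higher in CD24 high cells, beside 16.1% of all genes. Between the Wnt4-deleted fractions 20 passed, 17 lower and 3 higher, beside 16.4% of all genes, and 19 passed in both genotypes. The median log2 change of the 87 genes was -0.15 in each genotype. Between genotypes 0 of 87 passed in either fraction or in the difference of effects by limma. Their counts at an unadjusted p under 0.05 were 2 in CD24 low cells, 6 in CD24 high cells and 2 for the difference, beside 3.06%, 1.99% and 1.37% of all genes. Counts of single lists below rest on few genes and are read beside the same shares. As CD24 low arrays also held fibroblast and endothelial transcripts, the differences between fractions are not tied to a cell type.

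Heparan sulfate chains are the co-receptor to which FGFs bind, and of the enzymes that build and trim them, 10 of 16 measured passed in WT (1 higher, 9 lower) and 9 of 16 in Wnt4-deleted cells (1 higher, 8 lower). Sulf1 and Sulf2, the sulfatases that remove sulfate groups from finished chains, went opposite ways. Sulf1 was 8.67 ± 0.39 in WT CD24 low and 5.30 ± 0.29 in WT CD24 high cells (SD, n = 3), a log2 change of -3.36 (10.3-fold), with -3.24 in Wnt4-deleted cells. Sulf2 was 7.39 ± 0.03 and 9.81 ± 0.37 in the same groups, a log2 change of 2.41 (5.33-fold), with 2.01 in Wnt4-deleted cells. Ext1, a polymerase of the chain, was lower in CD24 high cells by a log2 change of -2.17 in WT and -2.25 in Wnt4-deleted cells. The sulfotransferase genes Hs3st1 (-1.97 and -1.91) and Hs3st3a1 (-1.25 and -2.13) were lower as well. The WT call of Hs3st3a1 was lost without array 2 (adjusted p = 0.0721), 9 (0.0877) or 14 (0.0732). Among the enzymes counted in Wnt4-deleted cells, Hs6st1 lost its call on leaving out any 1 of 8 of the 12 arrays. Hs3st3b1 lost its call there on leaving out any 1 of 4.

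Of the core proteins that carry these chains, 3 of 9 passed in each genotype, all lower in CD24 high cells: Gpc3 (log2 change -2.55 in WT and -2.85 in Wnt4-deleted cells), Gpc4 (-2.09 and -1.62) and Sdc3 (-1.17 and -0.96). Gpc3 varied among the WT CD24 low arrays, from 6.38 to 8.04. Of other receptors and partners, 2 of 5 passed in each genotype and both were lower: Flrt2, a transmembrane protein known to bind FGF receptors (-1.90 and -1.96), and Fgfrl1, a receptor without a kinase domain (-1.15 and -0.89). Sdc3 lost its WT call without array 1 (adjusted p = 0.0504) and its call in Wnt4-deleted cells without array 3 (0.0856), 11 (0.0616), 12 (0.116) or 16 (0.107). Fgfrl1 lost the latter without array 3 (0.0583), 4 (0.0792), 11 (0.07) or 16 (0.0862). None of the 11 other paracrine ligands and none of the 5 endocrine ligands and Klotho co-receptors passed, with medians of -0.03 and -0.04 in WT. These paracrine ligands stood between the 13.3rd (Fgf6) and 58.4th percentile (Fgf8) of the genes on an array. The endocrine ligands and Klotho co-receptors stood between the 14.8th (Kl) and 46.1st (Fgf15). At dim levels a change near 0 does not show that the fractions were alike.

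Downstream of the receptors, the phospholipase gene Plcg1 was lower in CD24 high cells (log2 change -1.27 in WT and -1.46 in Wnt4-deleted cells), the 1 gene of 13 adaptors and Ras-MAPK members called in both genotypes. Among 12 further inhibitors, Dusp4, a phosphatase of MAP kinases, was higher in CD24 high cells (1.44 and 2.40) and Spry4 lower (-1.48 and -1.25), the second call being lost without array 4 (adjusted p = 0.0653) or 11 (0.0577). Thus Spry4, Spry1, Spry2 and Spred1 were lower and Dusp4 higher in the same fraction. Of the 12 further inhibitors, 8 were not called in WT and 10 in Wnt4-deleted cells. Spred3, not called, had higher means in CD24 high cells (6.60 and 7.21 in WT, 6.73 and 7.26 in Wnt4-deleted cells). Spry3, also not called, was dim, with means of 3.79 and 3.55 in WT. Of 10 transcriptional outputs of FGF and MAPK signalling, Etv5, an ETS factor induced by FGF, was lower by a log2 change of -2.07 in WT and -1.80 in Wnt4-deleted cells, and Myc by -0.72 and -0.74. The other 8 did not pass in either genotype.

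Genes called in 1 genotype only fall outside the naming rule and were looked at after their values were seen. In WT these were 5: Fgfbp1, a carrier that releases FGFs from the matrix, was higher in CD24 high cells (log2 change 1.23, adjusted p = 0.0481), as was the Raf kinase gene Araf (0.86, adjusted p = 0.0197), while Dusp7 (-1.90), Spred2 (-1.11) and Extl2 (-1.36) were lower. In Wnt4-deleted cells it was 1, Fgf14, an intracellular FGF homologous factor, which was higher (1.5, adjusted p = 0.0436). Fgfbp1 and Fgf14 were dim in CD24 low cells. In WT, Fgfbp1 was 3.85 to 4.19 in CD24 low and 4.31 to 6.13 in CD24 high cells. In Wnt4-deleted cells, Fgf14 was 3.73 to 4.06 and 4.35 to 6.70. The call of Fgfbp1 was lost on leaving out any 1 of 11 of the 12 arrays and that of Fgf14 likewise, and that of Araf without array 1 (adjusted p = 0.0712), 10 (0.0669), 13 (0.0832) or 14 (0.0573). Their largest moves were to 0.78 for Fgfbp1 without array 14 (adjusted p = 0.154) and 0.84 for Fgf14 without array 4 (adjusted p = 0.0559). No difference between the genotypes passed for any of these genes in limma's test of the difference of effects.

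**Figure D5:**
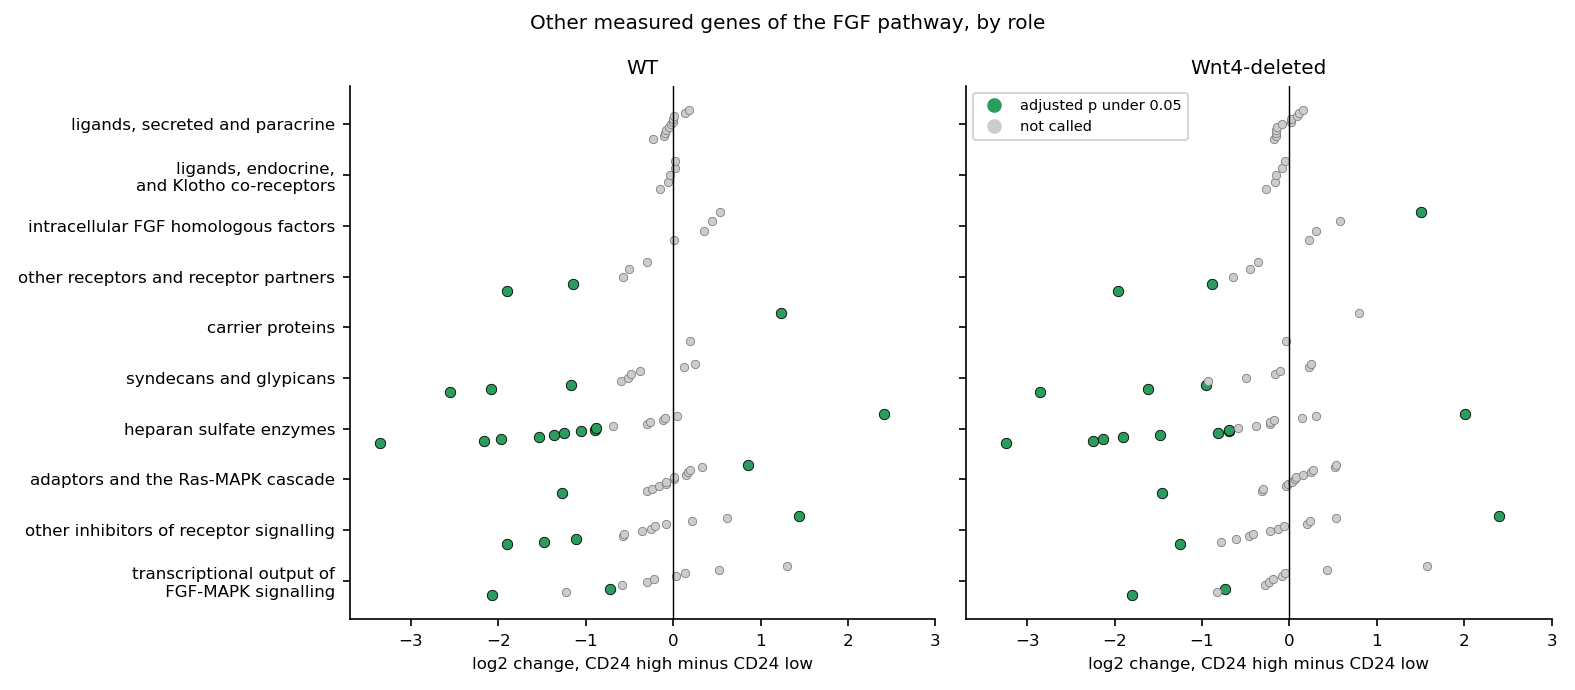
Log2 change from CD24 low to CD24 high cells (horizontal axis) of the 87 other measured pathway genes, 1 point a gene, by role, in WT (left) and Wnt4-deleted cells (right), with filled green points for an adjusted p under 0.05. Sulf1 at -3.36 and Sulf2 at 2.41 in WT mark the ends of the range among heparan sulfate enzymes.

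Likeness of pattern was measured, for the 7 members called at least once, as the root mean square difference between a member's 12 mean-centred log2 values and those of 17162 other genes, so 0 is the same pattern. The nearest genes were Synpo (0.17), Bcam (0.25) and Boc (0.25) for Fgf1, and Fstl3 (0.19), Rnf122 (0.27) and Bcam (0.29) for Fgf2, while the median gene stood 0.91 and 0.97 away. For Fgfr2 they were Mtss1 (0.15), Lars2 (0.16) and Slc17a9 (0.16), and for Fgfr3 Gpsm1 (0.14), Pkd1 (0.20) and Kank2 (0.21). For Spry1 they were Itga5 (0.20), Ptpru (0.21) and Scara3 (0.21), for Spry2 Eva1a (0.17), Dcun1d3 (0.17) and Mkx (0.18), and for Spred1 Slc35d1 (0.19), Tead1 (0.20) and Cpne2 (0.21). Among the members themselves the closest pair was Fgf1 and Fgf2, at 0.30. All these distances share the same 12 arrays and are led by the contrast of the fractions.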

How the data were processed

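Gene expression of sorted mouse mammary cells was read on 12 one-colour Affymetrix arrays, 3 for each of 4 groups taken from the sample titles. The labels give Trizol extraction of total RNA, and amplification and biotin labelling with Ovation Pico and FL-Ovation kits. RMA was run by the authors (Affymetrix Expression Console 1.1.2800), and the deposited values are therefore background-corrected, quantile-normalised log2 expression values. Values ran from 1.62 to 13.8, as log2 values would. There is no read depth on an array, and the number of arrays sets the precision. A level on one probeset was not set against that on another. No pair of arrays held identical values.

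Of 35556 probesets, 21789 had 1 gene symbol in the platform annotation, 1621 had several and 12146 had none here. The probeset with the highest mean stood for each gene, which gave 19938 genes. A mean per group was fitted to all genes with limma 3.58.1 (R 4.3.3, functions lmFit and eBayes, 8 residual and 11.05 moderated degrees of freedom), and checked on simulated data. Tests are two-sided, with p-values adjusted over all genes by Benjamini and Hochberg within each of 5 comparisons, and genes under 0.05 were called. The design text speaks of independent experiments. Title numbers fall into 3 sets with 1 array of each group, which the labels do not tie to an experiment. These sets were used as within-set values and as a block in alternatives only.

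All 10 members are named in every comparison. Of other pathway genes, those called in a genotype comparison and, in each list, up to 3 highest and 3 lowest changes among those called in both genotypes' fraction comparisons are named. Members, lists and tests were chosen with earlier results of these data known. Alternatives were median centring, a second quantile normalisation, a filter at the 40th percentile, the mean of probesets, a robust prior with an intensity trend, weights per array, the compared groups only, sets as a fixed or random block, arrays 9 to 16 only, marker means as covariates, adjusted p under 0.01 or 0.1, and each array left out. Leaving out arrays 1 and 3, or 9 and 11, was added after seeing the data. Promoters come from RefSeq (GRCm38.p6). The build behind the array annotation is not given in the sources used here.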

Additional observations from a re-analysis of the deposited data

How the results depend on the processing

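In the alternatives to each comparison, Fgf1, Fgf2 and Spred1 kept their direction and their call between fractions in both genotypes in 29 of 29, and no called change of any member turned its sign. The number of members called in WT lay between 4 and 7 (main 6). In Wnt4-deleted cells it lay between 3 and 8 (main 7): it fell to 4 with the fibroblast marker mean as a covariate and to 3 with the endothelial mean, and leaving out 1 array gave 5 to 7. Of the 87 other pathway genes, 12 passed in Wnt4-deleted cells at an adjusted p under 0.01, against 20, and leaving out 1 array gave 14 to 20. Calls lost in at least 1 alternative were those of Fgfr3 in WT (1 of 29) and in Wnt4-deleted cells (17 of 29), Spry2 (7 and 8 of 29), and Fgfr2 and Spry1 in Wnt4-deleted cells (2 of 29 each). Fgf7 gained a call in 7 of 28 alternatives in WT and 1 of 28 in Wnt4-deleted cells (the skeletal muscle covariate), and was left out by the filter at the 40th percentile. In the genotype comparisons and the difference of effects, 0 of the 10 members was called in any alternative, and 54 of 854 refitted values of uncalled members changed sign. Over all genes the calls moved from 3218 to 5215 with array weights and 1843 at an adjusted p under 0.01 in WT. In Wnt4-deleted cells they moved from 3278 to 2059 and 2031 with the fibroblast and endothelial covariates, 1854 at an adjusted p under 0.01 and 2156 without array 16. In CD24 low cells the 1 gene called between genotypes became 0 in the compared groups only, on arrays 9 to 16 and without arrays 9 and 11, and 2 with the muscle covariate or without array 3. In CD24 high cells it became 0 on arrays 9 to 16. The causes were not tested. The labels give the groups no shared replicate numbers, so the title-number sets stood in as a block: as a fixed block they added the call of Fgf7 in WT (adjusted p = 0.0487) to the 6 there, as a random block they added none, and 7 members were called in Wnt4-deleted cells with either. Arrays without a background call limit what can be said of the dim Fgf7 and Fgf10 and of other dim ligands of the pathway.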
